A study of Mus musculus with 12 samples.

Results

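The platelet-derived growth factor (PDGF) family was examined as the 6 genes that encode its receptors and ligands, out of 20368 genes listed for embryonic mouse hearts. The members were taken by gene symbol: the receptors Pdgfra and Pdgfrb and the ligands Pdgfa, Pdgfb, Pdgfc and Pdgfd. All 6 were listed, yielded whole read counts and passed the filter on low values. PDGF ligands are secreted dimers that bring receptor tyrosine kinases together at the cell surface, and the paired receptors then recruit signalling proteins to their phosphorylated tails. PDGFA and PDGFC act mainly through PDGFRA, while PDGFB and PDGFD act mainly through PDGFRB. In the developing heart the receptors are best known from epicardium-derived cells, cushion mesenchyme and the mural cells (pericytes and smooth muscle) of the coronary vessels, whereas PDGFB is made chiefly by endothelium.

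The hearts came from CD1 embryos in which Cre recombinase was driven by Mesp1, a gene switched on in the earliest cardiac progenitors, so recombination also reaches the endothelium, epicardium and smooth muscle that descend from them. The mutants were Mesp1Cre;Hira-/fl, with 1 null and 1 floxed allele of Hira, which encodes a histone chaperone. The Cre controls were Mesp1Cre;Hira+/fl, so that they too carried Cre and lost 1 copy of Hira in the Mesp1 lineage, and no heart without Cre was compared. RNA was sequenced from 3 libraries per genotype at embryonic day (E) 11.5 and 3 per genotype at E12.5, 12 in all. The labels do not say how many hearts entered a library, so p-values measure the spread between these libraries, which may in part be technical.

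The libraries held between 11994148 and 17483982 reads on genes, the lowest being E11.5 mutant replicate 3. Hira itself was counted over its whole length, at 68.4 to 85.5 CPM, the read count scaled to library size in E11.5 controls and 56.7 to 74.5 in E11.5 mutants, and at 60.9 to 85.97 and 71.1 to 80.5 at E12.5. A floxed allele loses only part of the gene, so these values do not check the genotype. Reads of 4 Y-linked genes marked all 3 E11.5 controls as male but only E11.5 mutant replicate 3, so sex and genotype were partly confounded at E11.5. At E12.5 each genotype had 1 male, which was replicate 3 among the controls and replicate 1 among the mutants. These were whole hearts, so fewer cells of a type and less RNA per cell cannot be told apart in any result that follows.

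Pdgfa, the main ligand of PDGFRA in many tissues, was the most abundant member, and Pdgfb the least. Levels are given as RPKM, the read count scaled to gene length and library size, which divides by the gene length used by the authors and so allows genes to be compared. Over the 12 libraries the mean RPKM was 34.1 for Pdgfa, 17.7 for Pdgfra, 10.1 for Pdgfrb, 6.29 for Pdgfc, 5.42 for Pdgfd and 2.32 for Pdgfb. Pdgfra exceeded Pdgfrb in 12 of 12 libraries and Pdgfrb exceeded Pdgfc in 11 of 12. Pdgfc exceeded Pdgfd in only 8 of 12, so the order of these neighbours lies within the spread of the libraries. The first place of Pdgfa rests on its length. The authors' value was 1019 bases, against 2060 bases for the longest principal transcript in the GENCODE annotation, and with the latter its mean falls to 16.9 RPKM and it exceeds Pdgfra in 5 of 12 libraries.

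**Figure D1:**
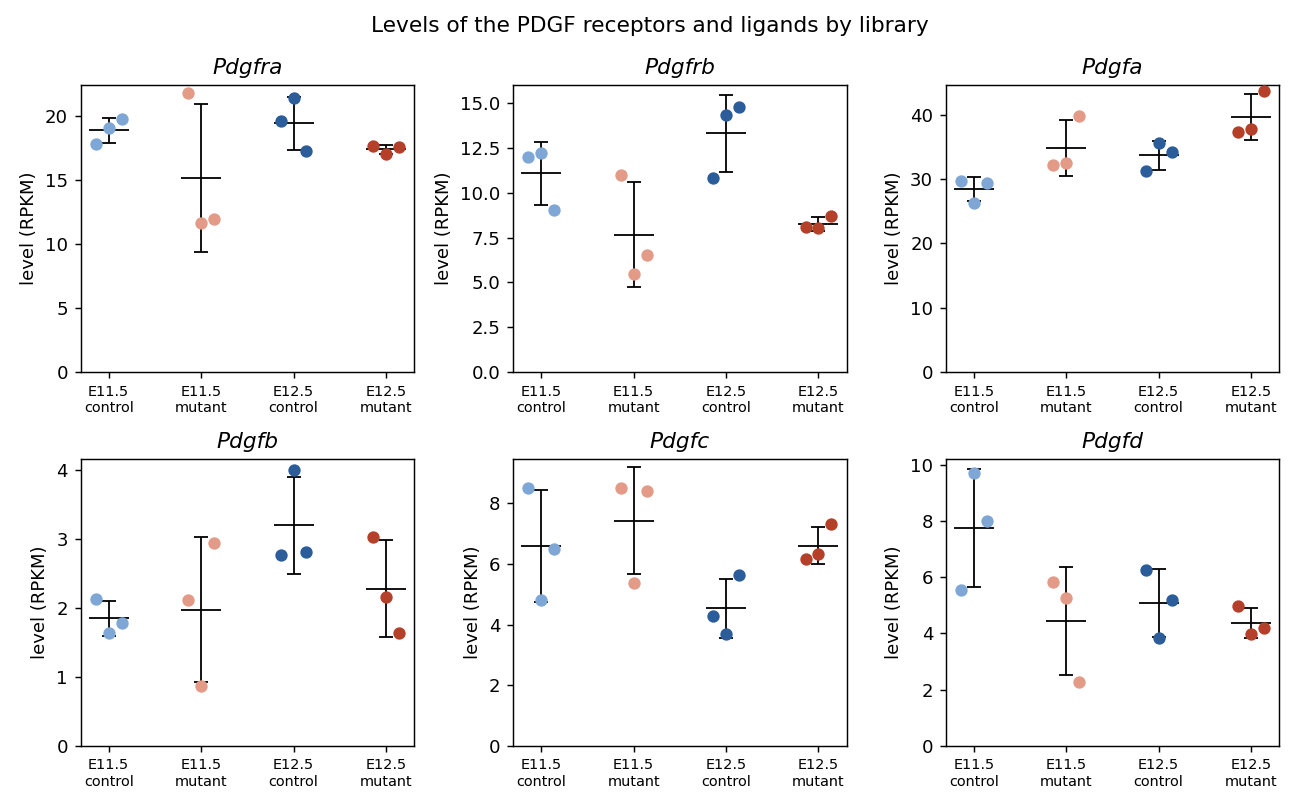
Level in RPKM (vertical axis, starting at 0) of each PDGF receptor and ligand in the 12 libraries, grouped by stage and genotype. Points are libraries in replicate order, bars are the mean ± SD of 3, and at E12.5 the 3 mutant points lie below all 3 controls for Pdgfrb and above them for Pdgfa and Pdgfc.

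Pdgfrb, the receptor that guides pericyte and smooth muscle recruitment, was downregulated in mutant hearts. At E12.5 its level was 10.8, 14.4 and 14.8 RPKM in controls and 8.08, 8.02 and 8.69 in mutants. Every mutant library lay below every control library, and the mutants spread far less than the controls. The mutant mean was 8.26 ± 0.369 RPKM (SD, n = 3) against 13.3 ± 2.16 in controls (SD, n = 3). The fitted change was a log2 fold change of -0.69 (SE 0.113), which is 1.62-fold lower, with an edgeR quasi-likelihood p of 7.67e-05 and an adjusted p of 0.00912. Pdgfrb ranked 103 by p among the genes tested.

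At E11.5 Pdgfrb stood at 12.0, 12.2 and 9.04 RPKM in controls and 11.0, 5.46 and 6.53 in mutants. Mutant replicate 1 lay among the controls, while the other two mutants lay below them. The log2 fold change was -0.53 (SE 0.249) with an adjusted p of 0.524 by edgeR, so the difference did not pass the test. Mutant replicate 3, the sole male mutant at this stage, at 6.53 RPKM, was below all 3 controls, which were male.

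Both stages were also fitted together, a fit chosen because earlier results had shown the members to differ by little at each stage. With 6 mutant against 6 control libraries, Pdgfrb showed a log2 fold change of -0.61 (adjusted p = 0.0254, SE 0.15 by edgeR), which is 1.53-fold lower. That call was the weaker of the pair. It was kept when E11.5 control replicate 3, E11.5 mutant replicate 1 or E12.5 control replicate 1 was left out and lost when any of the other 9 libraries was, by adjusted p up to 0.0622 or by a fold change under 1.5, with log2 fold changes from -0.53 to -0.78. The call at E12.5 alone was kept without each library in turn, and was lost only when all 12 libraries shared 1 estimate of the spread (adjusted p = 0.162). The difference of the mutant effect between stages was -0.16 (adjusted p = 0.961, SE 0.305), so the stages were not shown to differ.

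Pdgfrb lies at chr18:61045150-61085061 in the mouse genome build mm10, on the plus strand, and its longest principal transcript has 23 exons. The next protein-coding gene, 15536 bases beyond its end and on the same strand, is Csf1r, which encodes the macrophage colony-stimulating factor receptor of the same kinase class and is described further on.

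Pdgfra, the receptor of cushion mesenchyme and epicardium-derived fibroblasts, did not pass the test at either stage. At E11.5 it was at 17.8, 19.1 and 19.8 RPKM in controls and 21.8, 11.6 and 12.0 in mutants. Mutant replicate 1 was above every control and the other two were below every control, so that the coefficient of variation was 38.2% in mutants and 5.19% in controls. The log2 fold change was -0.32 (adjusted p = 0.739, SE 0.227, edgeR).

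At E12.5 Pdgfra was at 19.6, 21.4 and 17.3 RPKM in controls and 17.6, 17.0 and 17.6 in mutants. The groups overlapped, and the log2 fold change was -0.16 (95% interval -0.35 to 0.03, adjusted p = 0.309, edgeR). Over both stages it was -0.24 (adjusted p = 0.349, SE 0.132). The same library, E11.5 mutant replicate 1, was the highest mutant at that stage for both receptors, and the receptors moved together over the 12 libraries (Pearson r = 0.772, or 0.711 after removing group means). That library also had the highest summed level of liver markers, at 28.4 RPKM against 0.426 and 0.95 in the other E11.5 mutants and 0.692 to 13.4 in the controls. With that sum Pdgfra and Pdgfrb had within-group r of 0.657 and 0.659 (0.48 and 0.25 over the 12 libraries). E12.5 mutant replicate 1 had a liver sum of 25.6 RPKM, against 1.71 and 7.74 in the other E12.5 mutants. Its levels of both receptors were close to those of the other E12.5 mutants. The part of the liver markers in the receptor levels was not tested. The gene lies on the plus strand at chr5:75152291-75198204, and its longest principal transcript has 23 exons.

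Among the 6 members, edgeR called 0 at E11.5 and 1, Pdgfrb, at E12.5, where a call needs both a 1.5-fold change or more and an adjusted p no higher than 0.05. Over all genes tested the same rule called 0.115% at E11.5, 2.96% at E12.5 and 3.22% with both stages together. The unadjusted p was under 0.05 for 1 member at E11.5, for 3 at E12.5 and for 4 in the joint fit. Over all genes tested it was under 0.05 for 10.2%, 21.4% and 19.4%. DESeq2 and limma also called 0 members at E11.5. For a difference of the mutant effect between stages edgeR, DESeq2 and limma called 0 members, with 0 at an unadjusted p under 0.05, and edgeR called 0% of all genes, with 551 at an unadjusted p under 0.05. A term for sex at E11.5 leaves mutant replicate 3, the only male mutant, alone against the male controls. With it the log2 fold changes were -0.65 for Pdgfra, 0.68 for Pdgfb and 0.36 for Pdgfc. Libraries of the genotypes did not overlap for 1 member at E11.5, where 16.3% of all genes did not, and for 3 at E12.5, where 26.1% did not. Pdgfa alone did so at both stages in 1 direction, as did 6.53% of genes. The counts of members without overlap are thus to be read against a high background.

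**Figure D2:**
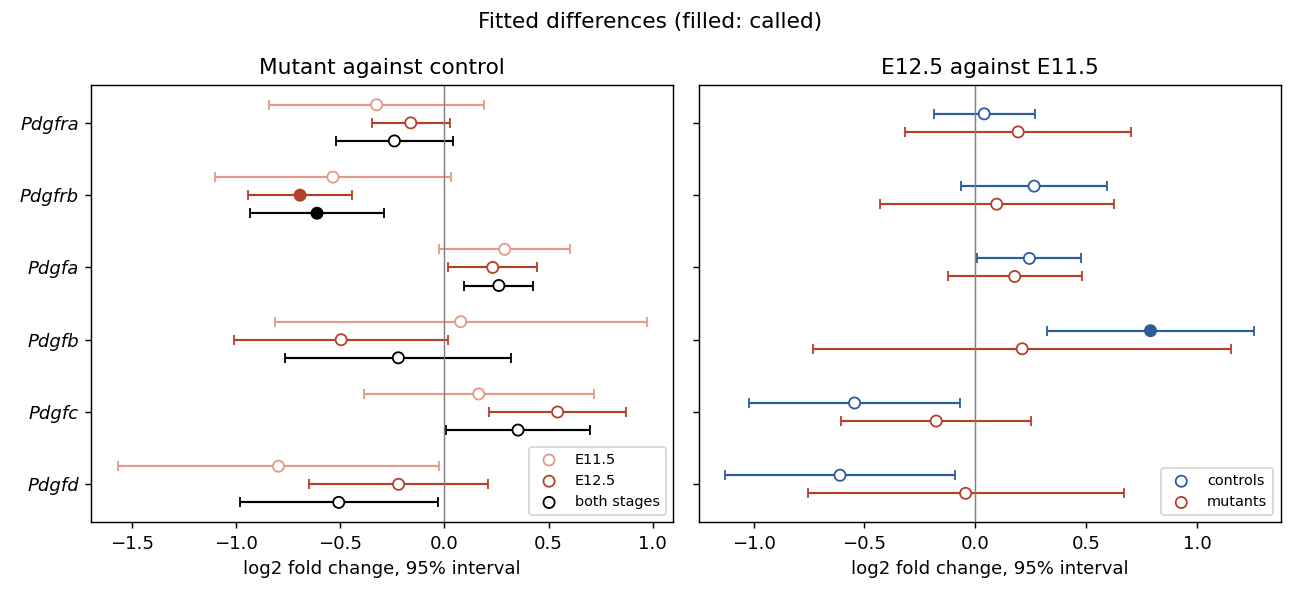
Fitted log2 fold change (horizontal axis) with its 95% interval for each member, for mutant against control on the left and E12.5 against E11.5 on the right. Filled points mark the calls, which are Pdgfrb at E12.5 and over both stages and Pdgfb between stages in controls.

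The ligands that act mainly through PDGFRA stood higher in mutants, without passing the test, and those that act mainly through PDGFRB overlapped between genotypes at each stage. Pdgfa was at 29.6, 26.2 and 29.4 RPKM in E11.5 controls and 32.2, 32.5 and 39.8 in E11.5 mutants. At E12.5 it was at 31.2, 35.6 and 34.1 in controls and 37.3, 37.8 and 43.7 in mutants. Each mutant library was above each control library of its stage. The log2 fold change was 0.29 at E11.5 (adjusted p = 0.533), 0.23 at E12.5 (adjusted p = 0.193) and 0.26 over both stages (adjusted p = 0.0584, SE 0.0774, edgeR). With a term for sex it was 0.50 at E11.5, where mutant replicate 3 alone was then set against the controls. In the joint fit the 95% interval was 0.10 to 0.43, which lies under the fold change of 1.5 that a call requires (0.585 on the log2 scale). Pdgfa lies on the minus strand at chr5:138976014-138997370.

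Pdgfc, a ligand secreted in a latent form with a CUB domain that is cut off outside the cell, showed its larger difference at E12.5. Controls were at 4.29, 3.69 and 5.62 RPKM and mutants at 6.18, 6.33 and 7.31. All mutants were above all controls, and the highest control, replicate 3, was the male one. By edgeR the log2 fold change was 0.54 (SE 0.149) and its adjusted p was 0.0633, short of a call. Without E12.5 control replicate 3 it was 0.73 with an adjusted p of 0.0147 and was called. At E11.5 Pdgfc overlapped, with 8.51, 4.80 and 6.50 RPKM in controls and 8.50, 5.39 and 8.40 in mutants (log2 fold change 0.17, adjusted p = 0.911). Over both stages the log2 fold change was 0.35 (adjusted p = 0.246, SE 0.162). Pdgfc lies on the plus strand at chr3:81036416-81214040.

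Pdgfd, the other latent ligand, which binds PDGFRB, was at 5.56, 9.72 and 8.0 RPKM in E11.5 controls and 5.82, 5.25 and 2.26 in E11.5 mutants. The lowest value, in mutant replicate 3, rested on 47 reads in the shallowest library, and mutant replicate 1 overlapped the controls. By edgeR the log2 fold change was -0.80 (SE 0.34), and its adjusted p was 0.469. The log2 fold change was -1.77 with a term for sex, which set mutant replicate 3 alone against the controls. It was -0.49 without that library (adjusted p = 0.34). At E12.5 the controls were at 6.26, 3.84 and 5.19 RPKM and the mutants at 4.97, 3.97 and 4.19, all within the range of the controls. The log2 fold change there was -0.22 (adjusted p = 0.556, SE 0.195), and over both stages -0.51 (adjusted p = 0.222, SE 0.221). Pdgfd spans chr9:6168612-6378843 on the plus strand. Ddi1, a gene on the other strand within it, had 1 read in all 12 libraries.

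Pdgfb, the endothelial ligand that attracts mural cells, was the scarcest member, with 42 to 210 reads per library. Counting alone gives an SD of 15.4% at its fewest reads. It was at 2.13, 1.63 and 1.78 RPKM in E11.5 controls and 2.12, 0.862 and 2.94 in E11.5 mutants. The mutants spread to both sides of the controls, and the log2 fold change of 0.08 (adjusted p = 0.977, SE 0.394) changed sign under other settings. At E12.5 it was at 2.77, 4 and 2.81 in controls and 3.03, 2.16 and 1.64 in mutants. Mutant replicate 1 lay within the controls, and the log2 fold change was -0.49 (adjusted p = 0.251, SE 0.234, edgeR). Over both stages it was -0.22 (adjusted p = 0.724, SE 0.253). Pdgfb lies on the minus strand at chr15:79995900-80014808.

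To place the ligands in sequence, the bases just before their RefSeq transcription starts (build GRCm38.p6) were searched on both strands for GAGAGAGA, a repeat that the study considered in relation to HIRA, for the GC box GGGCGG and for the TATA box TATAAA. The search covered 4 of the 6 members, Pdgfa with 2 starts and Pdgfc, Pdgfd and Pdgfra with 1 each. Pdgfrb and Pdgfb were not searched, so the result says nothing of them. In the 250 bases before each start GAGAGAGA was found in none of these 5 windows, and it occurs in 3.26% of all 32851 such windows. Both Pdgfa windows held a GC box (32.74% of all windows do), the first 1 copy and the second 2, and Pdgfd alone held a TATA box (12.37% of all windows do). GC content was 66.4% and 72.4% for Pdgfa, 50.8% for Pdgfc, 53.6% for Pdgfd and 54.4% for Pdgfra, against a median of 52.4%. The ligand windows are shown because Pdgfa and Pdgfc, whose levels stood higher in mutants, differ from each other in these features. For Pdgfa only the longest stretch outside annotated exons is printed, which leaves out the GC boxes of its second window. Bases run 5′ to 3′ in the direction of the gene, and capitals mark a match to the GC box or the TATA box. A match is a match of letters only.
Pdgfa first window, chr5:138994282-138994398, minus strand: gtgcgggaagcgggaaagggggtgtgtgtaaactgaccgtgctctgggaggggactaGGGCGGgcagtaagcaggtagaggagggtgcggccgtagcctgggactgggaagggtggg
Pdgfa second window, chr5:138995038-138995194, minus strand: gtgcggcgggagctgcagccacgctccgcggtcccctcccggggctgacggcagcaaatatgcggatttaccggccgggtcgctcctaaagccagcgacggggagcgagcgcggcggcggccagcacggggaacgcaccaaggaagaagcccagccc
Pdgfc, chr3:81036166-81036415, plus strand: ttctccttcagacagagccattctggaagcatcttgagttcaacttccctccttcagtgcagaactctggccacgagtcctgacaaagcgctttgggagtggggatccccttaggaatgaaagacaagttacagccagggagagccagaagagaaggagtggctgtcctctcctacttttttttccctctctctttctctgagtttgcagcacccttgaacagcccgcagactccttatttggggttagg
Pdgfd, chr9:6168236-6168485, plus strand: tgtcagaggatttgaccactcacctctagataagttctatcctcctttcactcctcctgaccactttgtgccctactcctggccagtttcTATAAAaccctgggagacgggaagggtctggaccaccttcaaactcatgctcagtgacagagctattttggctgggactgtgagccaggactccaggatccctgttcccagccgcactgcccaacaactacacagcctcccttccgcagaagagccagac

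Between E11.5 and E12.5 a single member, the ligand Pdgfb, changed in control hearts. It was upregulated 1.73-fold, from 1.85 ± 0.253 to 3.19 ± 0.70 RPKM (SD, n = 3 each), with a log2 fold change of 0.79 (adjusted p = 0.0404, SE 0.21, edgeR). Of all genes 5.28% were called. All 3 E12.5 controls exceeded all 3 E11.5 controls, but the E11.5 controls were all male and at E12.5 only replicate 3 was. With a term for sex the log2 fold change was 0.60, but that fit sets E12.5 control replicate 3 alone against the E11.5 controls. The call of Pdgfb was lost without any of 5 of the 6 libraries (all but E11.5 control replicate 2) and with all 12 libraries in 1 fit (adjusted p = 0.158). Pdgfc and Pdgfd stood lower at E12.5, with log2 fold changes of -0.54 (adjusted p = 0.11, SE 0.215) and -0.61 (adjusted p = 0.103, SE 0.233), and Pdgfa higher, with 0.24 (adjusted p = 0.139, SE 0.106). Without E11.5 control replicate 2 Pdgfc was called, at -0.74 with an adjusted p of 0.0139.

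Pdgfrb showed a log2 fold change of 0.26 (adjusted p = 0.243, SE 0.148) between the stages in controls and Pdgfra of 0.04 (adjusted p = 0.822, SE 0.103). In mutants 0 of the 6 members was called by edgeR, with 0 at an unadjusted p under 0.05 and 0 called by DESeq2 or limma, where 0.556% of all genes were called. The mutant log2 fold changes between stages ran from -0.18 for Pdgfc to 0.21 for Pdgfb. The control and mutant stage effects of Pdgfb, 0.79 and 0.21, were not shown to differ (difference -0.56, adjusted p = 0.956, SE 0.497). Stage and any processing day cannot be told apart.

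Pdgfra took a larger share of the receptor transcripts in mutants at E12.5. Pdgfra made up 64.4%, 59.8% and 53.9% of summed receptor RPKM in E12.5 controls and 68.6%, 67.9% and 66.9% in E12.5 mutants. All mutants were above all controls. At E11.5 the shares were 59.8%, 60.9% and 68.6% in controls and 66.4%, 68.0% and 64.7% in mutants, which overlap. As a log2 ratio of Pdgfra to Pdgfrb, the mutant minus control difference was 0.20 at E11.5 (exact permutation p = 0.4) and 0.52 at E12.5 (exact p = 0.1, the smallest that 3 against 3 can give). Over both stages, with labels permuted within stage, it was 0.36 with a two-sided exact permutation p of 0.03 and an adjusted p of 0.03 over the 2 ratios tested. Leaving out 1 library brought that p to between 0.055 and 0.065 for 6 of the 12, which were E11.5 control replicates 1 and 2, E11.5 mutant replicates 1 and 2 and E12.5 mutant replicates 1 and 2, with differences from 0.28 to 0.45 over all 12.

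The ratio of ligand to receptor transcripts was higher in mutants. Summed ligand RPKM was 44.5 to 47.8 in E12.5 controls and 50.3 to 56.9 in E12.5 mutants, while summed receptor RPKM was 30.5 to 35.7 and 25.02 to 26.2. Neither sum overlapped between genotypes. Ligand over receptor was 1.46, 1.32 and 1.49 in E12.5 controls and 2, 2.01 and 2.17 in E12.5 mutants. At E11.5 it was 1.54, 1.35 and 1.59 in controls and 1.48, 2.57 and 2.89 in mutants, with mutant replicate 1 inside the controls. The mutant minus control difference on the log2 scale was 0.58 at E11.5 (exact permutation p = 0.3), 0.53 at E12.5 (exact p = 0.1) and 0.56 over both stages (two-sided exact permutation p = 0.015, adjusted p = 0.03 over the 2 ratios). The size of the ratio itself rests on the 1019-base length of Pdgfa. With annotated transcript lengths, an alternative chosen after seeing the data, it was 0.952, 0.822 and 0.958 in E12.5 controls and 1.28, 1.26 and 1.34 in E12.5 mutants, and the both-stages difference was 0.50 (exact permutation p = 0.015). With the authors' lengths no single library decided it, with differences of 0.46 to 0.70 and p up to 0.04 when each was left out. Pdgfrb is in the denominator of both ratios, so neither is independent of its lower level in mutants. The members were also chosen with earlier results of these data known.

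**Figure D3:**
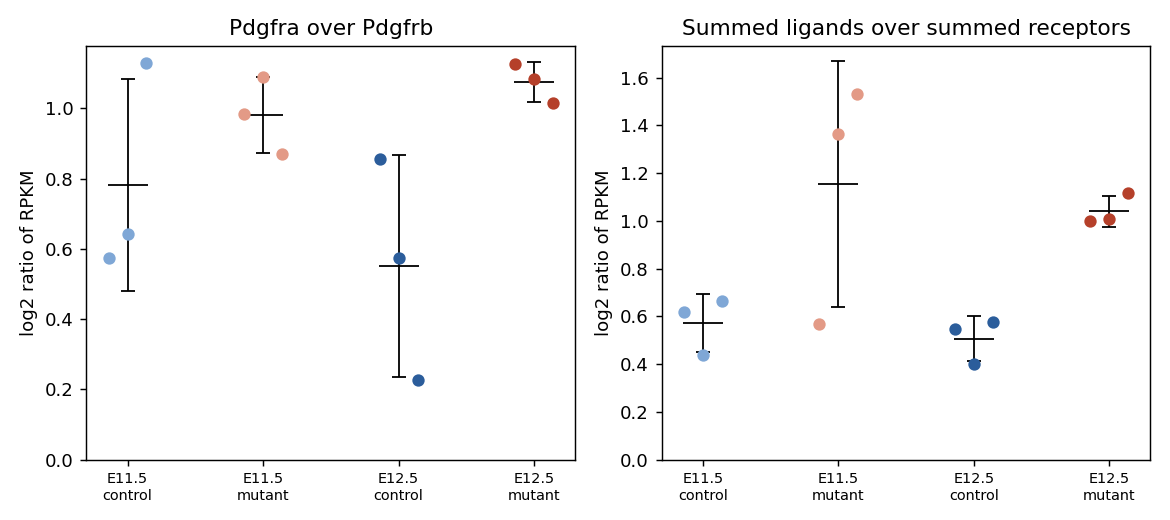
Log2 ratio of Pdgfra to Pdgfrb RPKM (left) and of summed ligand to summed receptor RPKM (right) in each library (vertical axes, starting at 0), by stage and genotype, with mean ± SD of 3 libraries. At E12.5 the mutants lie above the controls in both panels, and at E11.5 the genotypes overlap in both.

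Within the ligands, Pdgfa carried 61.9% to 76.9% of summed RPKM over the 12 libraries (44.6% to 62.2% with the annotated length of 2060 bases), and Pdgfb 1.96% to 8.49%. The share of Pdgfd was 4.24% in E11.5 mutant replicate 3, where Pdgfa and Pdgfc together made up 90.3%. The ligands of PDGFRA, Pdgfa and Pdgfc, made up 73.2% to 83.2% in E11.5 controls, 83.7% to 90.3% in E11.5 mutants, 79.7% to 83.4% in E12.5 controls and 84.5% to 89.7% in E12.5 mutants. The mutants exceeded the controls of their stage in every library. Pdgfa and Pdgfd ran in opposite directions, with a Pearson r of -0.831 between their log2 levels over the 12 libraries and -0.839 after removing group means. The libraries share their scaling in all such correlations, which are descriptions only.

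**Figure D4:**
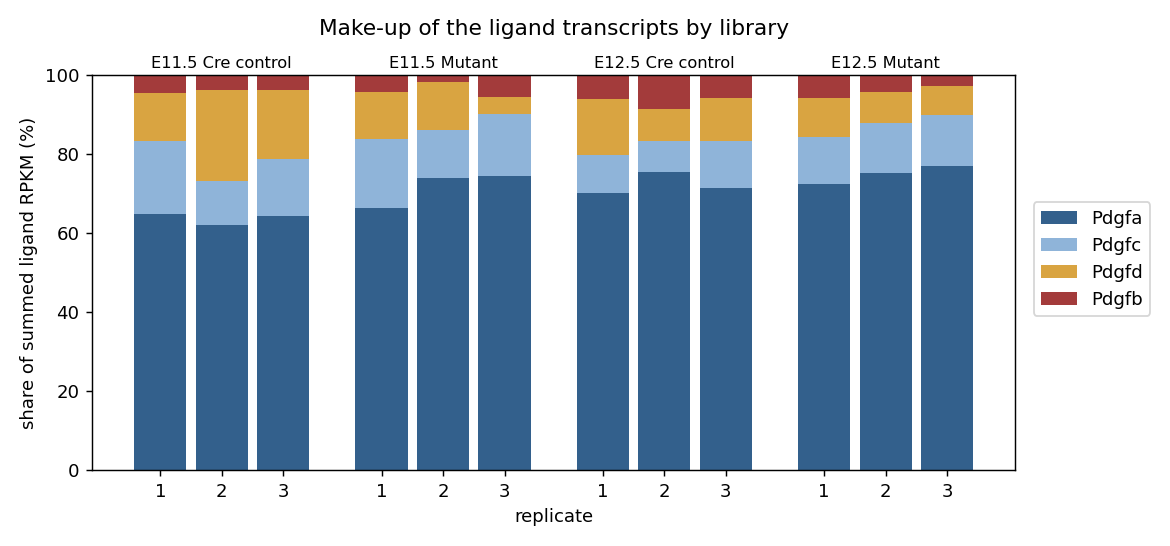
Share of each ligand in the summed ligand RPKM of a library (vertical axis, percent), 1 stacked bar per library, by stage and genotype. Pdgfa is the largest part of every bar, and the joint share of Pdgfa and Pdgfc is 73.2% to 83.4% in controls and 83.7% to 90.3% in mutants.

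Outside the family, 64 genes were followed in 5 lists, and 63 of the genes gave counts. The lists were ligand processing and co-receptors, signal transducers, attenuators, related receptor tyrosine kinases and VEGF ligands. The last pair of lists holds relatives of the family rather than genes of PDGF signalling. Csf1r belongs to the list of related kinases and is also a macrophage marker. With both stages fitted together 62 were tested, of which 0 rose and 3 fell (Pcsk6, Plau and Csf1r), where 3.22% of all genes were called, and 22.6% had an unadjusted p under 0.05, against 19.4% of all genes. At E12.5 2 of 61 were called, both lower, where 2.96% of all genes were called, and 23% had an unadjusted p under 0.05, against 21.4% of all genes. At E11.5 edgeR called 0 of 62, with 10 at an unadjusted p under 0.05 (16.1%, against 10.2% of all genes), while DESeq2 called 2 and limma 0. The median log2 fold change over the lists was -0.01 in the joint fit, close to that of all genes.

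In the list of ligand processing and co-receptor genes 2 of 11 were called lower in the joint fit, and the median log2 fold change was -0.21. Pcsk6, which encodes the proprotein convertase PACE4, one of the enzymes able to cleave PDGF precursors, was at 12.6, 16.7 and 14.7 RPKM in E11.5 controls and 8.39, 6.51 and 6.94 in E11.5 mutants. At E12.5 it was at 20.2, 13.0 and 12.3 in controls and 5.63, 5.04 and 6.65 in mutants. No mutant library reached a control library at either stage. The log2 fold change was -1.39 at E12.5 (adjusted p = 0.00302, SE 0.181), -1.01 at E11.5 (adjusted p = 0.0712, SE 0.152) and -1.20 over both stages (adjusted p = 2.52e-04, SE 0.139, edgeR). The joint call was kept without each library in turn, with log2 fold changes from -1.27 to -1.06.

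Plau, the urokinase protease that can release the active part of PDGFD, was at 4.01, 2.85 and 5.92 RPKM in E11.5 controls, 2.74, 1.88 and 2.40 in E11.5 mutants, 6.31, 5.84 and 5.45 in E12.5 controls and 3.86, 4.02 and 1.97 in E12.5 mutants. Mutants lay below controls at each stage. Its log2 fold change was -0.85 over both stages (adjusted p = 0.0192, SE 0.196, edgeR) and -0.84 at E12.5 (adjusted p = 0.0575). Plat, the related protease that activates PDGFC, was not called (log2 fold change -0.21 over both stages, adjusted p = 0.378), and is given here though chosen after its values were seen. Sparc, a matrix protein that binds PDGF, was at 458, 489 and 489 RPKM in E11.5 controls and 384, 390 and 382 in mutants, then at 512, 493 and 482 and 424, 397 and 413 at E12.5. It was lower in every mutant library, with an adjusted p of 0.0059 over both stages, but by a log2 fold change of -0.29 (SE 0.0542) that is below the size for a call.

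**Figure D5:**
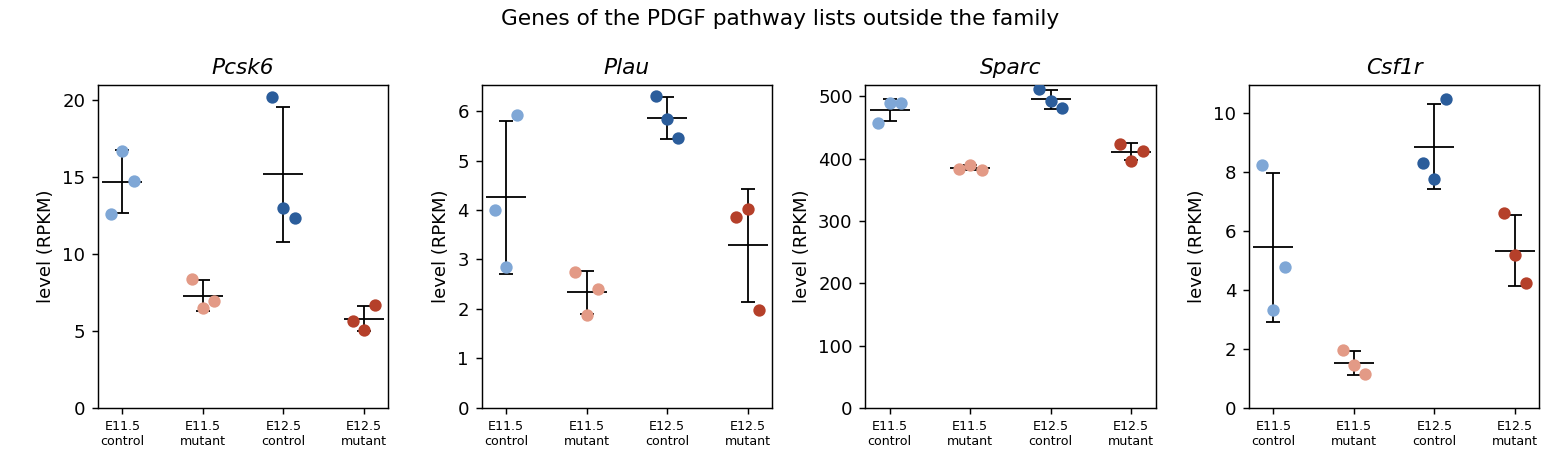
Level in RPKM (vertical axis, starting at 0) of Pcsk6, Plau, Sparc and Csf1r in the 12 libraries by stage and genotype, with mean ± SD of 3 libraries. In each panel the mutants lie below the controls of their stage.

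Among genes that carry or end the signal inside the cell no call was made. Of 30 signal transducers edgeR, DESeq2 and limma called 0 in the joint fit. At an unadjusted p under 0.05, which 19.4% of all genes had, 1 was higher and 3 were lower. The lowest p values were those of the Src family kinases Src (log2 fold change -0.26, adjusted p = 0.0459, SE 0.0735) and Fyn (0.26, adjusted p = 0.0518, SE 0.0756), in opposite directions and both under the size for a call. Of 12 attenuators, which end the signal, 0 was called by any of the 3 tools and 1 was lower at an unadjusted p under 0.05. Ptprj, a receptor phosphatase, showed a log2 fold change of -0.32 (adjusted p = 0.0966, SE 0.107) and Cblb, a ubiquitin ligase, of -0.19 (adjusted p = 0.293, SE 0.0936).

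Of 6 related receptor tyrosine kinases 5 were tested, and Csf1r was the single gene called. It was at 8.26, 3.33 and 4.77 RPKM in E11.5 controls and 1.98, 1.44 and 1.16 in mutants, and at 8.31, 7.79 and 10.5 in E12.5 controls and 6.61, 5.18 and 4.24 in mutants. The groups were apart at both stages. Its log2 fold change was -1.23 over both stages (adjusted p = 0.00974, SE 0.25, edgeR) and -0.73 at E12.5 (adjusted p = 0.0267, SE 0.159). The E12.5 call was lost without E12.5 control replicate 1 or 3 or mutant replicate 2 or 3 (adjusted p up to 0.0758). Csf1r also stands among the macrophage markers, of which 5 of 6 were tested and 3 fell over both stages (Csf1r, Mrc1 and Adgre1), and their summed RPKM was 25.8 to 34.7 in E12.5 controls and 15.5 to 19.7 in mutants. Flt1, a VEGF receptor, stood at a log2 fold change of 0.50 (adjusted p = 0.184, SE 0.205).

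Of the VEGF ligands, the nearest relatives of the PDGFs, 4 were tested and 0 was called by edgeR, DESeq2 or limma in the joint fit, with 1 higher and 1 lower at an unadjusted p under 0.05. Vegfa showed a log2 fold change of 0.35 (adjusted p = 0.0449, SE 0.0973), under the size for a call, and Vegfc of -0.27 (adjusted p = 0.195, SE 0.11).

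Markers of the cell types that express these receptors were read beside Pdgfrb. At E12.5 the summed RPKM of 8 cushion mesenchyme markers was 263 to 323 in controls and 218 to 248 in mutants, without overlap. Its largest part was Postn, the matrix protein periostin, at 138 to 189 RPKM in controls and 92.9 to 127 in mutants. Postn was the 1 marker of the list called there (log2 fold change -0.61, adjusted p = 0.0241, SE 0.13). That call was lost without E12.5 control replicate 1 or 2 or mutant replicate 1 or 3 (adjusted p up to 0.0922). The other 7 ran from -0.51 for Msx2 to 0.08 for Prrx2, and the median of the 8 was -0.127 on the log2 scale, against -0.0018 for all genes. Of 9 mural cell markers 8 were tested and 1, Abcc9, fell at E12.5 by edgeR (log2 fold change -0.73, adjusted p = 0.0424, SE 0.179) and was not called by DESeq2 or limma, but the summed level was higher in mutants, at 1220 to 1440 RPKM against 879 to 1170, most of it Acta2 (log2 fold change 0.41, adjusted p = 0.0648). The Abcc9 call was lost without E12.5 control replicate 1 or 2 or mutant replicate 1 or 2 (adjusted p up to 0.148). Acta2, Tagln and Cnn1 made up nearly all of the mural sum, so it says little of the scarcer markers. At E12.5 Tagln and Cnn1 stood at log2 fold changes of 0.15 and 0.41. Rgs5 was higher as well, while Abcc9, Kcnj8 (-0.33), Cspg4 (-0.24) and Notch3 (-0.04) were lower. The median log2 fold change of the 8 mural markers was 0.05 at E12.5, ranging from -0.73 for Abcc9 to 0.47 for Rgs5. It was -0.04 over the 7 tested at E11.5, where Rgs5 was at -1.12. The part of these cells in the lower Pdgfrb level was not tested.

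Most epicardium markers stood lower in mutants at E11.5 and not at E12.5. For a difference of the mutant effect between stages edgeR called 0 of the 8, with a lowest adjusted p of 0.488 for Aldh1a2. For that difference 7 had an unadjusted p under 0.05, as did 551 of all 12270 genes. At E11.5 6 of 8 were lower and 1 higher at an unadjusted p under 0.05, which 10.2% of all genes had. Of the 8, edgeR called 0, DESeq2 5 and limma 0. Their sum was 298 to 437 RPKM in controls and 270 to 294 in mutants. At E12.5 2 were called higher, Krt19 and Msln (the latter not without E12.5 control replicate 1, at an adjusted p of 0.0694), and the sum was 195 to 284 in controls and 299 to 318 in mutants. Upk3b, the most abundant of them, had log2 fold changes of -0.81 and 0.19 at the stages, neither called. A large part of the higher E12.5 sum was Krt19, at 38.2 to 52.8 RPKM in controls and 86.4 or more in mutants. The log2 fold changes there were 1.06 for Krt19 and 1.03 for Msln. The remaining epicardium markers ran from -0.05 for Wt1 to 0.19 for Upk3b, so the higher sum says little of them. The log2 fold changes of Pdgfrb, -0.53 and -0.69, had the same sign at both stages, and the part of the epicardium in them was not tested.

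Among the other lists in the joint fit, endothelium and endocardium had 1 of 8 markers called higher, Nfatc1 (log2 fold change 0.61, adjusted p = 0.00878 by edgeR, not called by limma). That call fell under the fold threshold without E11.5 control replicate 3, E11.5 mutant replicate 3 or E12.5 mutant replicate 1 (log2 fold change down to 0.52). Emcn, the most abundant, was not called. Cardiomyocytes had 0 of 8 called by edgeR, DESeq2 or limma, with 1 at an unadjusted p under 0.05, and Tnnt2, the most abundant, stood at a log2 fold change of 0.19. At E12.5 alone the 3 tools also called 0 of the 8. At an unadjusted p under 0.05, which 21.4% of all genes had, 5 were higher, and the median log2 fold change was 0.20. The summed level was 9940 to 11700 RPKM in controls and 11900 to 14200 in mutants, without overlap. The part of this in the levels of Pdgfrb and Pdgfa was not tested. Of 5 neural crest and glia markers with counts, 1 passed the filter, Ednrb, and was not called, while Sox10 and Foxd3 had 77 and 16 reads in all 12 libraries. Of 5 erythroid markers 0 was called in the joint fit by edgeR, DESeq2 or limma, with 0 at an unadjusted p under 0.05, but 2, Slc4a1 and Ermap, fell at E12.5 (Ermap not without E12.5 control replicate 1 or mutant replicate 2 or 3, at an adjusted p up to 0.0702), where the sum was 41.9 to 80.1 RPKM in controls and 20.3 to 28.9 in mutants, and Slc4a1 was the most abundant. Of 4 liver markers tested Alb was called higher by edgeR alone, with E12.5 mutant replicate 1 at 9.16 RPKM and every other library at 0 to 0.439. The call was kept without E12.5 mutant replicate 2 or 3 and lost without any other library. Without E12.5 mutant replicate 1 Alb did not pass the filter. Afp, the most abundant, was at 24.5 RPKM in E11.5 mutant replicate 1 and 13.1 in E12.5 mutant replicate 1. Of 2 skeletal muscle markers tested 0 was called by the 3 tools, with 1 lower at an unadjusted p under 0.05, and Ckm was the most abundant.

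Over the 12 libraries, Pdgfrb and Pdgfra followed the summed cushion mesenchyme markers with Pearson r of 0.688 and 0.611, falling to 0.399 and 0.476 after removing group means. Pdgfrb had an r of -0.539 with the summed mural markers, nearly all Acta2, Tagln and Cnn1, and 0.0783 after removing group means. Pdgfb followed the cushion markers with 0.677, and 0.865 after removing group means, and Pdgfa followed the cardiomyocyte markers with 0.446, and 0.836 after removing group means. With the endothelium and endocardium markers Pdgfb had an r of -0.324, and -0.594 after removing group means. With the epicardium markers Pdgfra had -0.1 and Pdgfrb -0.243, or -0.192 and -0.135 after removing group means. These are a selection from all pairs of member and marker list.

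The genes most like each member over the 12 libraries, by Pearson r of log2(CPM + 0.5), were as follows. For Pdgfra they were Tns3 (r = 0.901), Adamts2 (0.896) and Adamtsl1 (0.89), the last pair being of the ADAMTS family of secreted matrix proteins. For Pdgfrb they were Ssc5d (0.915), Bcl2l1 (0.91) and Notum (0.905), the last a secreted enzyme that inactivates WNT proteins. For Pdgfa they were Tnnt2 (0.925), the cardiac troponin T gene, Rab17 (0.908) and Gipc2 (0.907). For Pdgfb they were Shisa2 (0.934), Plaur (0.916), the receptor of the Plau product, and Lad1 (0.877). For Pdgfc they were Zfp239 (0.932), Lurap1l (0.9) and Hebp1 (0.886), and for Pdgfd Fxr1 (0.923), Slc39a10 (0.92) and Hmgxb4 (0.913). Each was picked as the highest among 12270 genes.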

How the data were processed

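RNA from mouse embryonic hearts (12 libraries) was sequenced as paired ends on an Illumina NextSeq 500. Per the labels and the methods, the authors aligned reads with Bowtie2 to mm10 and normalised them with DESeq. The deposited table holds a score per gene and library that the authors called RPKM, but each score was a read count multiplied by gene length and a library factor. The deposited comparison tables hold the mean raw count of each group (expected counts), from which the factors were solved. Whole counts were recovered, and RPKM recomputed from them, for 17827 genes, and 100.0% of values were whole within 0.01 (largest distance 7.36e-06). Fold and p columns of the authors' comparisons were not used. Strand use in counting was not given in the sources used here.

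Counts were fitted with edgeR 4.0.16 (TMM scaling, quasi-likelihood test, R 4.3.3) over genes averaging 0.5 RPKM or more, 12197 to 12270 genes per comparison, with Benjamini-Hochberg adjustment over all of them. The SE is the absolute log2 fold change over the root of F. Ratios were tested by exact permutation, two-sided, of 400 arrangements within stage. DESeq2 1.42.0, limma 3.58.1 on log2(RPKM + 0.5), median-ratio scaling, no filter, 1 fit of 12 libraries, the replicate number as a block, a sex term (male at 100 or more reads of 4 Y-linked genes) and each library left out were alternatives. Recovery and fits were tested on simulated data with 200 changed genes. Depth sets the precision, from 42 reads for Pdgfb to 2567 for Pdgfra.

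Members, gene lists and the joint fit of both stages were chosen with earlier results of these data known. Named genes were the 6 members, the 2 lowest p values of each pathway list in the joint fit, all genes called in a genotype fit of such a list, the most abundant gene of each marker list, and the 3 genes most correlated with each member. Sex-chromosome genes stayed out of the fits, which left out 3 list genes. Marker genes named beside the most abundant lie outside this rule and were chosen after their values were seen, as was leaving out each library for them.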

Additional observations from a re-analysis of the deposited data

How the results depend on the processing

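The E12.5 call of Pdgfrb was lost when all 12 libraries shared 1 estimate of the spread, which left 0 members called there, and leaving out each library gave 1 to 2 members. Over both stages leaving out each library gave 0 to 1. Between stages in controls 0 members were called with 1 fit of 12 libraries, and leaving out each library gave 0 to 2. The causes were not tested. With the sex term the stage effect in controls rested on E12.5 control replicate 3 alone. Leaving out each library moved the both-stages log2 ratio of Pdgfra to Pdgfrb from 0.2802 to 0.4484.

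Among alternatives chosen after seeing the data, pathway genes called at E11.5 rose from 0 to 2 with no filter on low values, to 2 with DESeq2, to 2 with 1 fit of 12 libraries and to 3 with the replicate block. At E12.5 the count was 1 with 1 fit of 12 libraries, and 1 to 2 when leaving out each library.

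Deviations of same-numbered libraries had r from -0.0284 to 0.425 at E11.5 and 0.0226 to 0.0586 at E12.5. Libraries of different numbers were not compared, and the labels do not say whether replicates share litters. Whether replicate numbers pair the libraries was thus not settled. With the replicate block no call of a member changed, and Plau at E12.5 was called (-0.88, adjusted p = 0.018).

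Small log2 fold changes reversed. Pdgfb at E11.5 was -0.042 with the replicate block, -0.0223 with limma and -0.324 to 0.446 when leaving out each library, and Pdgfc there -0.0194 to 0.393. The stage difference of the mutant effect was -0.358 to 0.189 for Pdgfrb and -0.133 to 0.0618 for Pdgfa. Pdgfra between stages in controls was -0.129 with the sex term and -0.034 to 0.117 when leaving out each library. Between stages in mutants the ranges were -0.103 to 0.45 for Pdgfrb, -0.159 to 0.615 for Pdgfb and -0.339 to 0.189 for Pdgfd, which was 0.0371 with the replicate block, 0.0275 with the sex term and 0.0546 with limma. Depth limited Pdgfb and Pdgfd, at 42 and 47 reads in their lowest libraries.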
